A study of Mus musculus with 16 samples.

Results

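Olfactory and vomeronasal receptor genes form some of the largest gene families of the mouse, and their products are made in sensory neurons of the nose. Here, R-loop peaks at these genes were collected from 8 DRIP-seq peak lists of NIH/3T3 cells, fibroblasts of a line derived from mouse embryos. A peak was taken when its summit lay inside, or within 5000 bp of, a gene whose GENCODE M21 symbol starts with Olfr, Vmn1r or Vmn2r on chromosomes 1 to 19. This gave 698 of the 75093 peaks on these chromosomes, which merged into 460 separate regions. The windows of the 1960 receptor genes (1399 Olfr, 326 Vmn1r and 235 Vmn2r) covered 30.5 Mb after merging, and those of all 51229 genes covered 1415 Mb.

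The study set wild-type (WT) NIH/3T3 cells beside Xpo4 knockout (KO) cells made with CRISPR-Cas9, in which both copies of the gene were edited in the same way. Xpo4 encodes exportin 4, a carrier of cargo out of the nucleus. Genomic DNA was cut with MseI, DdeI, AluI and MboI, treated with RNase R, which digests linear RNA (RNase R+), or with its buffer alone (RNase R-), and pulled down with S9.6, an antibody against DNA:RNA hybrids. Each of the 4 groups (KO RNase R-, KO RNase R+, WT RNase R- and WT RNase R+) had 2 replicate peak lists, each called on its own, and the control library used in calling is not given in the sources used here. The labels do not say whether replicates came from separate cultures, so the p-values measure only the spread between these lists, which may be technical. Whether the Xpo4 edit was present could not be checked from peak positions.

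The lists held from 271 to 32031 peaks. The lowest number of fragments that the peak caller expected at any peak was 0.843 to 0.924 in the KO lists and 0.425 to 0.558 in the WT lists, so genotype and this level cannot be told apart by counts of peaks. In the WT RNase R- replicate 1 list, all 3885 peaks carried names that end in replicate 2, while no row of it was identical to a row of the other WT RNase R- list. The tested values are also given without this list, and counts are given list by list or by group.

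Olfr genes encode the odorant receptors of the main olfactory epithelium. Vmn1r and Vmn2r genes encode the pheromone receptors of the apical and the basal layer of the vomeronasal organ. All are G protein-coupled receptors that lie in tandem clusters, mixed with many pseudogenes, and each sensory neuron expresses a single receptor gene or very few, while other tissues keep the clusters in closed chromatin. An R-loop is a hybrid of RNA with one DNA strand that leaves the other strand single, and stretches in which one strand holds only purines are known to favour it.

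The regions found in the most lists lay on such stretches. Of the 3 regions present in at least 5 of the 8 lists, all held an uninterrupted run of purines or of pyrimidines of 46 bases or more within 100 bases of the summit. The windows of 201 bases around the summits of 7 regions are printed from GRCm38 (the + strand), because they show the repeats that recurred and 1 of the regions without such a run. Capitals mark the longest run of purines or pyrimidines, and in Olfr769 the longest stretch of repeated ATCT.
Vmn1r4, chr6:56932927-56933127: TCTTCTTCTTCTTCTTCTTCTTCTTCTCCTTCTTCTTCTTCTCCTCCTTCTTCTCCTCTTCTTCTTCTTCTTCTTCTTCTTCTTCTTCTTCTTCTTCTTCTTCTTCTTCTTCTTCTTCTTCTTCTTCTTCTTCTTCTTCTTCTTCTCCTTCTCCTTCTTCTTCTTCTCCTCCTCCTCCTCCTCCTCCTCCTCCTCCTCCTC
Olfr755-ps1, chr17:37276172-37276372: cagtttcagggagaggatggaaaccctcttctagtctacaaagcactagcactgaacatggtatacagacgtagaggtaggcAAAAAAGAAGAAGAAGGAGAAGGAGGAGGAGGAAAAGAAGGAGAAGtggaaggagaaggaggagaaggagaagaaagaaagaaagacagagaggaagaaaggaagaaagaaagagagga
Vmn2r113, chr17:22940664-22940864: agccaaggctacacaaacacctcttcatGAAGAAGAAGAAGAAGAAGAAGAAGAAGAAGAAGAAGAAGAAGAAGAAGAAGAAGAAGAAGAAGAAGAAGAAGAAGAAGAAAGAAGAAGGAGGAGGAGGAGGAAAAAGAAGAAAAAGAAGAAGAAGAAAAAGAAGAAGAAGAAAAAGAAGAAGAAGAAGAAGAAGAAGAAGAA
Vmn1r214, chr13:23028063-23028263: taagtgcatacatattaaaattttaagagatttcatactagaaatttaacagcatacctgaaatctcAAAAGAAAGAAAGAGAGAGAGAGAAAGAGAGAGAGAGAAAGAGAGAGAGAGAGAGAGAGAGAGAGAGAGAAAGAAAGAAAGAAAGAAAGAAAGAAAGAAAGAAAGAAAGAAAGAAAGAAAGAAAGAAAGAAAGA
Vmn1r51, chr6:90133953-90134153: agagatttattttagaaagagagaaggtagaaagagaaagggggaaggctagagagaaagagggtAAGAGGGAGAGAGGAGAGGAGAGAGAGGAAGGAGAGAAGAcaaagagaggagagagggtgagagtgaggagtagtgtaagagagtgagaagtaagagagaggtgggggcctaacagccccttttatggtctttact
Olfr120, chr17:37719630-37719830: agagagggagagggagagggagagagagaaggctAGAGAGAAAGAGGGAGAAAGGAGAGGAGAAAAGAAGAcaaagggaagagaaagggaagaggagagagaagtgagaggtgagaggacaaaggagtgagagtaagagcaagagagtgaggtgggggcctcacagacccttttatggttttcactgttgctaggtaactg
Olfr769, chr10:129114035-129114235: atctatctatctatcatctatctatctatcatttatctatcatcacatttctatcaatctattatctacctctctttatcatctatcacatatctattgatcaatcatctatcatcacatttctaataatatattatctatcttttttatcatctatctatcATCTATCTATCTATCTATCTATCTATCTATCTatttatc

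To see whether receptor genes carried peaks in each condition, summits were counted per list. KO RNase R- cells had 244 and 281 receptor peaks in replicates 1 and 2, or 8.01 and 9.22 per Mb of receptor windows. KO RNase R+ cells had 48 and 52, or 1.57 and 1.71 per Mb. WT RNase R- cells had 48 and 21, or 1.57 and 0.689 per Mb, and each WT RNase R+ list had 2, or 0.0656 per Mb. Both KO lists lay above both WT lists under each treatment, and the KO RNase R+ lists overlapped the WT RNase R- lists. The means were 262.5 ± 26.2 for KO RNase R-, 50 ± 2.83 for KO RNase R+, 34.5 ± 19.1 for WT RNase R- and 2 ± 0 for WT RNase R+ (SD, n = 2 each).

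**Figure D1:**
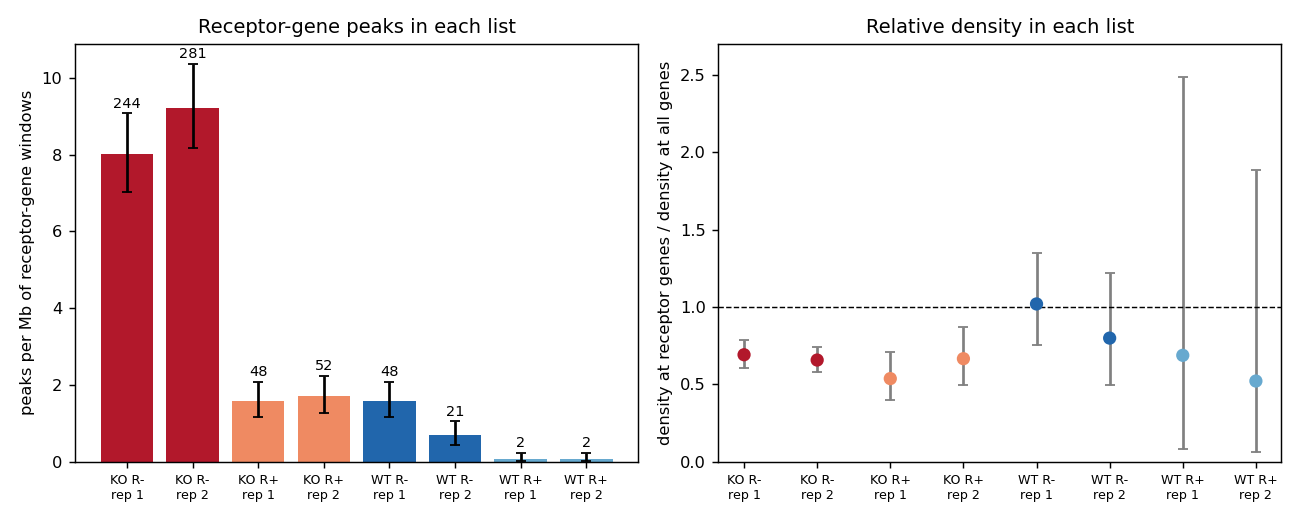
Receptor-gene peaks per Mb of receptor windows (left, bars, with the number of peaks above each) and the density at receptor genes divided by that at all genes (right, points) in the 8 peak lists; R- and R+ stand for RNase R- and RNase R+, error bars are 95% exact Poisson intervals of the counts, and the dashed line marks equal density. The KO RNase R- lists hold 244 and 281 peaks, the WT RNase R+ lists 2 each, and the relative density is below 1 in 7 of 8 lists, with WT RNase R- replicate 1 at 1.02.

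On the log2 scale of the number of peaks plus 0.5, KO exceeded WT by 3.02 without RNase R and by 4.34 with it, and in both the exact permutation test of 2 lists against 2 gave p = 0.333, the smallest it can give. Over both treatments the difference was 3.68 (exact permutation within treatment, two-sided p = 0.0556, the smallest possible, and 0.130 after Benjamini-Hochberg adjustment over 7 tests). RNase R+ lists were lower than RNase R- lists by the same test (log2 difference -3.03, exact p = 0.0556, adjusted p = 0.130). None of these passed 0.05 after adjustment. Without WT RNase R- replicate 1, whose peaks carry the other number, the RNase R- difference was 3.61, and without WT RNase R- replicate 2 it was 2.44. Without WT RNase R- replicate 1 the difference over both treatments was 3.97 and that between treatments -2.74. When peaks under a 10-fold enrichment were left out, the difference between treatments was -0.88 (exact permutation p = 0.333). The fragments of the KO peaks were also thinned at random to the expected level of the same-numbered WT list. Peaks weaker than any in that list were then dropped. This left 168 and 162 receptor peaks in KO RNase R- and 22 and 33 in KO RNase R+. In KO RNase R- these were 68.9% and 57.7% of receptor peaks, against 72.2% and 58.9% at all genes. In KO RNase R+ they were 45.8% and 63.5%, against 43.1% and 61.6%. KO then exceeded WT by 2.36 (log2) without RNase R and by 3.46 with it.

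Differences in the same direction were seen at all genes. Summed over replicates, KO RNase R- had 7.61 times as many receptor peaks as WT RNase R- (525 against 69), and 10.6 times as many peaks at all genes. The exact 95% interval of the receptor ratio for counting error was 5.91 to 9.93, and within replicates the ratio was 5.08 and 13.4. The all-gene counts within replicates were 16379 against 2185 and 19846 against 1220, larger ratios than at receptor genes in both. With RNase R the ratio was 25.0 at receptor genes (100 against 4) and 24.8 at all genes. RNase R+ lists had 5.25 times fewer receptor peaks than RNase R- lists in KO cells, against 4.66 times at all genes, and 17.25 times fewer in WT cells, against 10.9 times. The WT ratio rests on 69 against 4 peaks, with an exact 95% interval for counting error of 6.44 to 65.1 and values of 24 and 10.5 within replicates. The all-gene counts of these lists were 2185 against 135 and 1220 against 178, smaller ratios than at receptor genes in both.

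Relative to the density at all genes, the receptor windows held fewer peaks in most lists. The ratio of the densities was 0.692 and 0.657 in KO RNase R-, 0.537 and 0.666 in KO RNase R+, 1.02 and 0.799 in WT RNase R-, and 0.688 and 0.522 in WT RNase R+. The 95% Poisson interval lay below 1 in the 4 KO lists and included 1 in the 4 WT lists. Over the 8 lists the mean log2 ratio, with 0.5 added to each count, was -0.46 (exact sign-flip test, two-sided p = 0.0156, adjusted p = 0.109). The log2 ratio was lower by 0.38 in KO than in WT lists (KO minus WT -0.38, exact permutation p = 0.111, adjusted p = 0.194) and RNase R+ minus RNase R- was -0.23 (exact permutation p = 0.278, adjusted p = 0.333). The smallest p these 2 tests can give is 0.0556, so neither could pass 0.05. The genotype difference depended on the windows and reference, from -0.78 within gene bodies alone (exact p = 0.0556) to -0.08 without windows that overlap another gene (exact p = 0.833). Without WT RNase R- replicate 1 the mean log2 ratio was -0.53, the genotype difference -0.29 and the treatment difference -0.14.

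The receptor windows also differed from other gene windows in base composition. Their GC content was 38.2%, against 42.9% for all gene windows, and repeat-masked sequence made up 41.8% of them, against 29.2%. Against gene-window tiles of 5000 bp in the GC range of most receptor tiles (33.8% to 42.3% GC, 650.4 Mb), a reference chosen after the first results were seen, the relative density was 0.897 and 0.869 in KO RNase R-, 0.822 and 0.891 in KO RNase R+, 0.989 and 0.828 in WT RNase R-, and 1.26 and 0.871 in WT RNase R+. These ratios were nearer to 1 than those to all genes in each of the 8 lists, and still below it in 7 of 8 lists. The receptor density in them was that of the whole receptor windows, not of receptor tiles in this GC range. The mean log2 ratio was -0.03 (exact sign-flip p = 0.805), in which the 0.5 added to each count weighs most on the WT RNase R+ lists with 2 peaks each.

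Fewer receptor genes than other genes held a peak. In KO RNase R- replicate 1, 251 of 1960 receptor genes (12.8%) had a summit in their window, against 27% of all genes, and in replicate 2 it was 274 (14.0%) against 30.8%. In KO RNase R+ the numbers were 52 (2.65%) against 9.13% and 60 (3.06%) against 8.08%. In WT RNase R- they were 52 (2.65%) against 4.51% and 19 (0.969%) against 2.71%. Each WT RNase R+ list had a summit at 2 receptor genes (0.102%), against 0.285% and 0.369% of all genes. Windows of long genes hold more summits, and among the 31904 genes of at most 10 kb the shares were 16.8% and 19.6% in KO RNase R-, 5.41% and 4.63% in KO RNase R+, 2.25% and 1.37% in WT RNase R-, and 0.147% and 0.188% in WT RNase R+. The receptor share was below that of these short genes in 7 of 8 lists and above it in WT RNase R- replicate 1.

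Over all lists, 424 receptor genes (21.6%) had a summit in at least 1 list and 1536 had none. Of those with one, 233 had it in a single list, 128 in 2, 35 in 3, 23 in 4, 4 in 5 and 1, Vmn1r4, in 6. A summit in both KO RNase R- lists and in neither WT RNase R- list was found at 122 receptor genes (6.22%), against 17.1% of all genes and 10.4% of short genes. The reverse pattern was found at 1 receptor gene, against 0.166% of all genes. A summit in both KO RNase R- lists and in neither KO RNase R+ list was found at 116 receptor genes (5.92%), against 11.8% of all genes. A summit in both KO RNase R+ lists and in neither WT RNase R+ list was found at 26 receptor genes (1.33%), against 4.45%. In each of these patterns the receptor share was below that of all genes, as it was in the single lists.

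The families were examined next. At Olfr genes, the odorant receptors, KO RNase R- lists held 130 and 160 peaks, KO RNase R+ lists 31 and 28, WT RNase R- lists 30 and 9, and each WT RNase R+ list 1. Their density relative to all genes was 0.596 and 0.605 in KO RNase R-, 0.561 and 0.580 in KO RNase R+, and 1.03 and 0.554 in WT RNase R-. At Vmn1r genes, the receptors of the apical vomeronasal layer, KO RNase R- lists held 49 and 48 peaks, KO RNase R+ lists 9 each, WT RNase R- lists 6 and 5, and each WT RNase R+ list 1. Their relative density was 0.927 and 0.750, 0.673 and 0.770, and 0.851 and 1.27 in the same order. At Vmn2r genes, the receptors of the basal layer, the lists held 65 and 73, 8 and 15, and 12 and 7 peaks, with relative densities of 0.794 and 0.736, 0.386 and 0.828, and 1.098 and 1.15. No WT RNase R+ list held a Vmn2r peak, which allows up to 0.521 per Mb. In both KO RNase R- lists the Olfr windows had the lowest relative density of the 3 families, and the 95% Poisson intervals of the families overlapped in both (in replicate 1, 0.498 to 0.708 for Olfr, 0.686 to 1.23 for Vmn1r and 0.613 to 1.01 for Vmn2r). The differences between families were not tested.

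**Figure D2:**
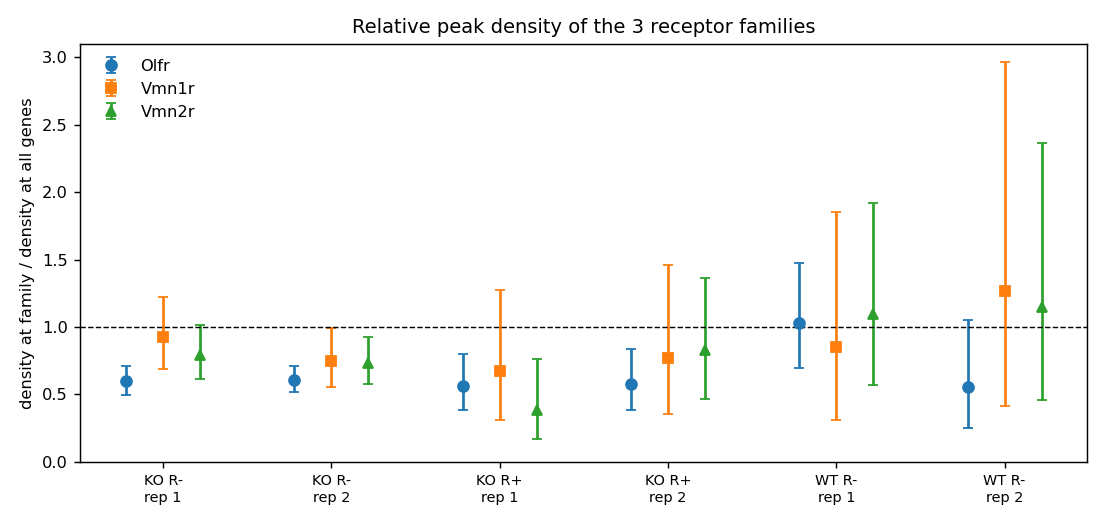
Peak density at Olfr, Vmn1r and Vmn2r windows divided by the density at all gene windows (vertical axis) in the 6 lists with at least 5 receptor peaks (horizontal axis; R- and R+ stand for RNase R- and RNase R+); error bars are 95% exact Poisson intervals, and the dashed line marks equal density. Olfr points lie near 0.6 in the KO RNase R- lists (0.596 and 0.605), while the WT RNase R- intervals include 1 for every family.

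Pseudogenes make up a large part of these families. In KO RNase R- cells the windows of the 502 receptor pseudogenes held 64 and 74 peaks, or 9.71 and 11.2 per Mb, and those of the 1457 protein-coding receptors held 189 and 220, or 7.51 and 8.74 per Mb. The Poisson intervals of the densities overlapped in both replicates (for replicate 1, 7.48 to 12.4 and 6.48 to 8.66 per Mb). By position, 12.2% of all receptor peaks lay within 1000 bp of a transcript start, which makes up 20.1% of the window length. Exons outside these promoters held 8.88% of peaks in 12.6% of the length, introns 24.1% in 21.7%, and the flanks 54.9% in 45.6%. In both KO RNase R- lists the density rose in the order promoter (3.93 and 6.22 per Mb), exon (5.71 and 7.78), intron (8.63 and 9.69) and flank (10.1 and 10.7). In these lists receptor peaks were sparsest at promoters. Of the 698 peaks, 49 (7.02%) lay inside the body of a gene that is no receptor.

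Receptor genes fall into 88 groups when genes less than 1 Mb apart are joined, and 21 of them have at least 0.5 Mb of windows. Their mean density in the KO RNase R- lists ranged from 2.13 to 16.7 per Mb with a median of 8.12. The highest were 2 clusters on chromosome 17 and 1 on chromosome 3. Vmn2r90 to Vmn1r-ps150 on chromosome 17, with 24 Vmn1r and 36 Vmn2r genes, held 24 and 30 peaks in KO RNase R-, 1 and 5 in KO RNase R+, and 5 and 4 in WT RNase R-. Olfr90 to Olfr136, also on chromosome 17 and with 58 Olfr genes, held 13 peaks in each KO RNase R- list, 5 and 4 in KO RNase R+, and 9 and 2 in WT RNase R-. Vmn2r-ps3 to Vmn2r-ps13 on chromosome 3, with 18 Vmn2r genes, held 7 and 9 peaks in KO RNase R-, 1 and 2 in KO RNase R+, and none in a WT list.

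The lowest were Olfr722 to Olfr1507 on chromosome 14 (2 and 1 peaks in KO RNase R-), Olfr334-ps1 to Olfr368 on chromosome 2 (1 and 2) and Olfr20 to Olfr412 on chromosome 11 (4 and 1). Chromosomes differ in peak density too, and all genes of chromosome 17 had 20.2 peaks per Mb in these lists against 8.01 for chromosome 14. Relative to all genes of the same chromosome the density was below 1 in 18 of the 21 clusters, and the 2 chromosome 17 clusters stood at 0.829 and 0.7995. The exceptions were Vmn2r-ps3 to Vmn2r-ps13 (1.18), Olfr9 to Vmn2r87 on chromosome 10 (1.20) and Olfr24 to Olfr18 on chromosome 9 (1.21). The largest cluster, Olfr987 to Olfr1274-ps on chromosome 2 with 287 Olfr genes, held 23 and 25 peaks, or 0.781 of the density of its chromosome.

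**Figure D3:**
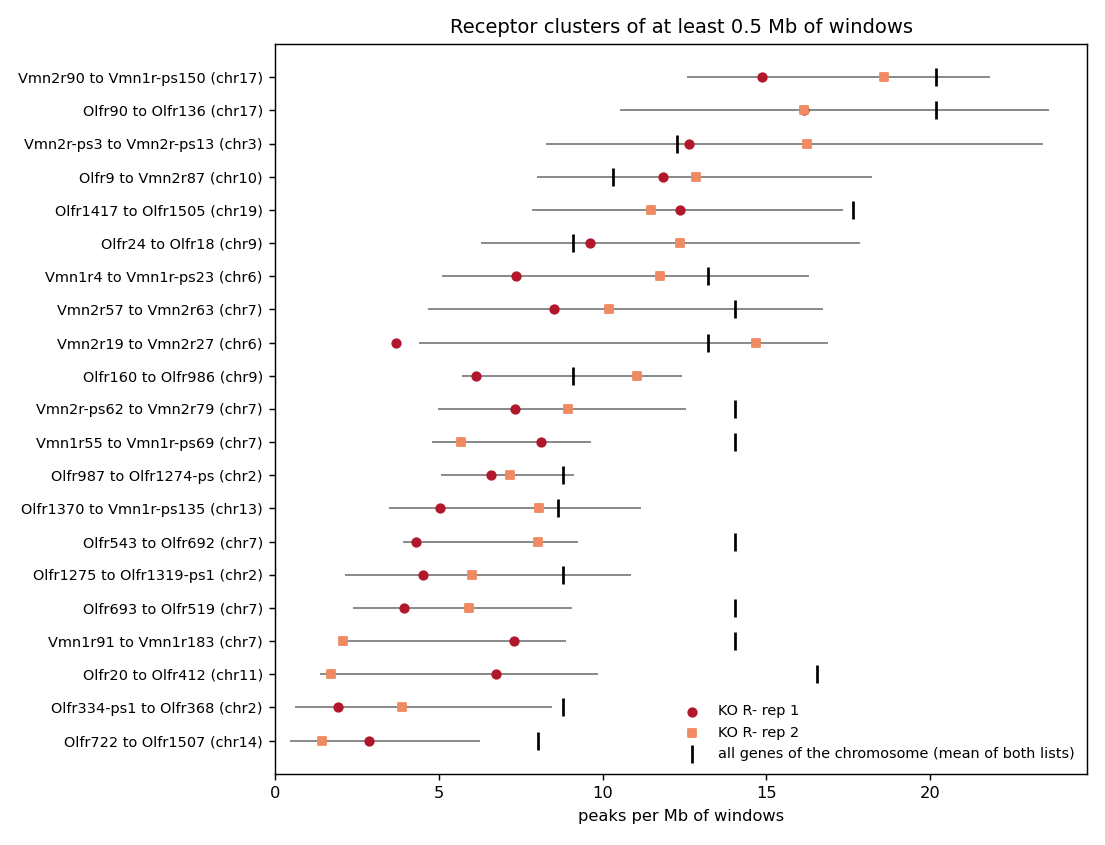
Peaks per Mb of windows (horizontal axis) in KO RNase R- replicates 1 (circles) and 2 (squares) for the 21 receptor clusters with at least 0.5 Mb of windows, named by their first and last gene; grey lines are 95% exact Poisson intervals of the mean of both lists and black ticks the mean density at all genes of the same chromosome. In 18 of the 21 clusters the mean of both lists is below the tick.

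Single regions varied between lists. Of the 460 regions, 289 (62.8%) were in 1 list, 124 in 2, 32 in 3, 12 in 4, 2 in 5 and 1 in 6. The 2 KO RNase R- lists together held 397 regions, and 128 (32.2%; Wilson 95% interval 27.8 to 37.0%) were in both, against 34.0% of regions in all gene windows. For KO RNase R+ the share was 29.9% (23 of 77; 20.8 to 40.8%) against 24.6%, and for WT RNase R- it was 7.94% (5 of 63; 3.44 to 17.3%) against 11.96%. Of the 3 WT RNase R+ regions 1 was in both lists. The interval of the receptor share included the all-gene share in each of these groups. A KO list held 424 regions and a WT list 65, of which 29 were in both genotypes and 36 in WT lists alone. All 4 KO lists held 10 regions, and 9 of these were in no WT list. The same patterns were not counted for regions at all genes, so these region counts do not show a pattern particular to receptor genes. By number of peaks, a different measure, KO lists held more than WT lists at all genes too (10.6 times without RNase R and 24.8 times with it).

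The region in the most lists lay in an intron of Vmn1r4 (chr6:56932823-56933249), a vomeronasal receptor gene that is the first of a cluster of 44 Vmn1r genes on chromosome 6. Its fold enrichment, over the level the peak caller expected there, was 6.42 in KO RNase R- replicate 2, 10.7 and 9.25 in KO RNase R+, 9.40 in WT RNase R- replicate 2, and 15.9 and 26.3 in WT RNase R+. It was in neither KO RNase R- replicate 1 nor WT RNase R- replicate 1, and it was the strongest receptor region of both WT RNase R+ lists, with a height of 30 and 40 fragments. As printed above, the 201 bases around its summit hold pyrimidines alone, mostly as repeats of CTT, which is GAA on the other strand. The other WT RNase R+ members were a pair of regions in the flank of Olfr467, an odorant receptor gene on chromosome 7. One (chr7:107810328-107810720) was in replicate 1 (fold 8.42, 11 fragments) and the other (chr7:107808599-107808956) in replicate 2 (fold 7.70, 11 fragments), and neither was in another list.

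In 5 lists there were 2 regions. The one at the promoter of the pseudogene Olfr755-ps1 (chr17:37276100-37276480) had a fold enrichment of 16.3 and 8.02 in KO RNase R-, 10.7 and 8.99 in KO RNase R+, and 5.41 in WT RNase R- replicate 1. The one in an intron of Vmn1r231 had 8.14 and 6.79 in KO RNase R-, 7.80 in KO RNase R+ replicate 1, and 4.96 and 9.40 in WT RNase R-. Its summit also lay inside Gm49761, a gene that is no receptor. Olfr755-ps1 and Vmn1r231 lie on chromosome 17, and neither region was in a WT RNase R+ list.

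The named regions were chosen partly for being in the most lists, so presence in many lists is built into the choice. Of them, 6 were in all 4 KO lists and in no WT list, as were 9 of all 460 regions (1.96%). The share among regions at all genes was not counted. Near Vmn1r51 (chr6:90133772-90134196) and inside the non-receptor gene Gm20426, the fold was 10.4 and 12.1 without and 12.5 and 7.96 with RNase R. Near Vmn1r214 (chr13:23028105-23028354) it was 7.36 and 10.5, then 10.9 and 11.6. Near Vmn2r113 (chr17:22940645-22940939) it was 5.81 and 9.50, then 6.14 and 9.87. Values of the same size were found near the pseudogene Vmn2r-ps3 (11.4 and 5.97, then 7.80 and 8.84), near Olfr120 (6.90 and 8.97, then 10.7 and 5.69) and in an intron of Olfr570 (5.43 and 5.80, then 10.3 and 10.6). In these regions the KO RNase R+ values overlapped the KO RNase R- values, except at Olfr570 and Vmn1r214, where both RNase R+ values were the higher ones. A fold enrichment is relative to each list's own background, and these differences were not tested. The region in an exon of Vmn1r9 had 8.64 and 6.67 in KO RNase R-, 10.9 in KO RNase R+ replicate 2 and 5.42 in WT RNase R- replicate 2.

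Among regions in both KO RNase R- replicates, the highest mean fold belonged to those near Olfr1437 (16.0 and 12.7), Olfr920 (12.3 and 14.2) and Olfr301 (9.61 and 16.7). With RNase R, the highest among regions in both KO lists were those near Vmn1r214, at the promoter of Olfr122 (9.83 and 11.2) and in Olfr570. In WT RNase R- cells they were in introns of Olfr769 (8.80 and 10.4), Vmn2r95 (7.16 and 7.39) and Vmn1r231. The Vmn2r95 region was in no KO list. The Olfr769 and Vmn2r95 windows held no run of 30 purines or pyrimidines (longest 9 and 10 bases), and the Olfr769 window consisted of ATCT-like repeats.

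**Figure D4:**
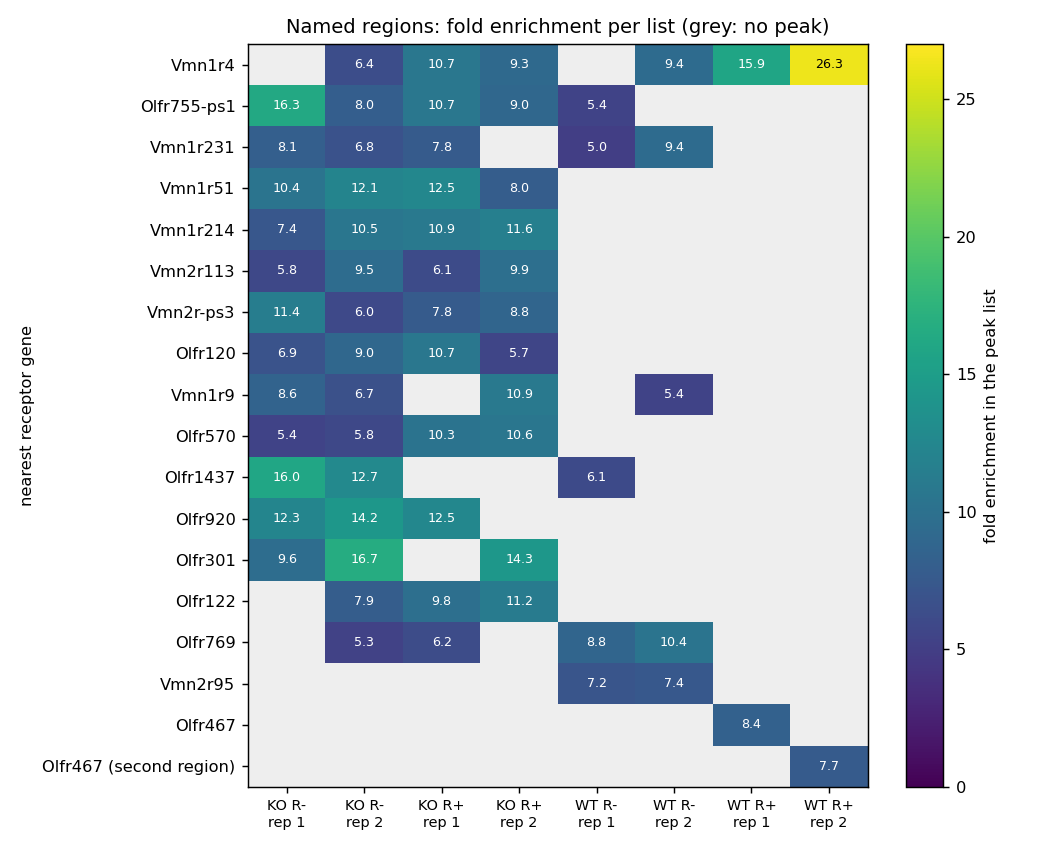
Fold enrichment over the expected level (colour and printed value) of the 18 named receptor regions (rows, by nearest receptor gene) in the 8 peak lists (columns; R- and R+ stand for RNase R- and RNase R+); grey cells have no peak. Most rows are filled in the KO columns, and the Vmn1r4 row reaches 26.3 in WT RNase R+ replicate 2.

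The purine and pyrimidine runs were noticed in the strongest regions and then counted everywhere, so the counts are a description without a test. A run of at least 30 bases lay in the 201 bases around the summit of 396 of 698 receptor peaks (56.7%), against 43.4% of the 47016 peaks at other genes. Of all tiles of 201 bases, 1.90% in receptor windows and 2.61% in all gene windows held such a run. By list, the share of receptor peaks with a run was 54.5% and 55.5% in KO RNase R-, 75.0% and 67.3% in KO RNase R+, and 47.9% and 42.9% in WT RNase R-. At other genes it was 44.5% and 44.4%, 41.5% and 44.8%, and 35.6% and 32.1% in the same order. The share was higher at receptor genes in each of these 6 lists, and the Wilson intervals were apart in the 4 KO lists and overlapped in the WT lists. All 4 WT RNase R+ receptor peaks held a run.

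**Figure D5:**
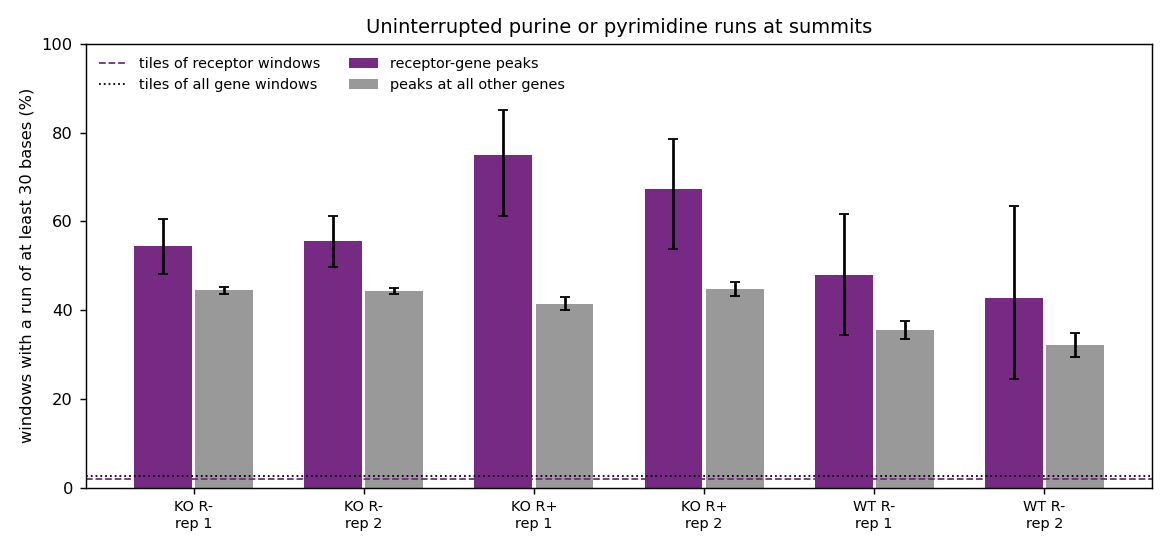
Share of summit windows of 201 bases that hold an uninterrupted run of at least 30 purines or pyrimidines (vertical axis, %), for receptor-gene peaks and for peaks at all other genes in the 6 lists with at least 5 receptor peaks (R- and R+ stand for RNase R- and RNase R+); error bars are Wilson 95% intervals and the lines give the share among all tiles of that length. Receptor bars reach 75.0% and 67.3% in KO RNase R+, and the tile lines lie at 1.90% and 2.61%.

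Of the 460 merged regions, each counted once, 237 (51.5%) held a run. The share was 44.6% for regions in 1 list (129 of 289) and 63.2% for those in 2 or more (108 of 171). It was 82.98% for those in 3 or more (39 of 47) and 86.7% for those in 4 or more (13 of 15). The matching shares of merged regions at other genes were not counted. The shares were alike in the families (50.7% Olfr, 50.6% Vmn1r and 54.1% Vmn2r). Of the 99 regions with a run and a summit inside the receptor gene, 45 had the purines on the coding strand and 54 the pyrimidines, so neither strand prevailed.

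Repeat units were searched on both strands of the 201-base windows, and a window can hold several. GAAA repeated 3 times was in 24.1% of receptor peaks, 15.4% of peaks at other genes and 0.526% of tiles of receptor windows. GA repeated 6 times was in 17.8%, 12.9% and 1.02%, and GAA repeated 4 times in 11.5%, 7.19% and 0.164%. GGAA repeated 3 times was in 12.2%, 10.3% and 0.284%. CA repeated 6 times, which mixes purines with pyrimidines, was in 2.87%, 4.36% and 1.996%. The units differed between treatments. GAAA was in 29.1% and 25.3% of receptor peaks of KO RNase R- and in 12.5% and 13.5% of KO RNase R+, while GAA was in 7.38% and 8.90% of the former and in 25.0% and 26.9% of the latter. At other genes the shares differed in the same direction (GAAA 16.8% and 17.3%, then 10.1% and 9.71%, and GAA 6.15% and 6.27%, then 9.83% and 14.1%). These shares were not tested.

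Receptor windows held 97.2 runs of at least 30 bases per Mb, against 136 per Mb in other gene windows (105 in Olfr, 77.1 in Vmn1r and 90.5 in Vmn2r windows). Of the 2962 runs in receptor windows, 184 (6.21%) and 212 (7.16%) had a summit within 100 bases in KO RNase R-, against 5.02% and 6.06% of runs at other genes. In KO RNase R+ the shares were 1.72% and 1.82%, against 1.24% and 1.22%, and in WT RNase R- 1.18% and 0.338%, against 0.542% and 0.278%. The share of runs with a summit was higher in receptor windows in each of these lists, with Wilson intervals that overlapped in WT RNase R- replicate 2. These shares were not matched for run length, and among runs of 100 bases or more the receptor share was not the higher in every list, as given below. Of the 2962 receptor runs, 583 had 100 bases or more, against 29671 of the 188792 runs at other genes. Away from runs, receptor windows held 3.31 and 3.84 peaks per Mb in KO RNase R-, against 6.07 and 7.38 at other genes, and 0.361 and 0.459 in KO RNase R+, against 1.65 and 1.36. In WT RNase R- the densities away from runs were 0.787 and 0.394, against 0.941 and 0.559. The Poisson intervals of these densities were apart in the 4 KO lists and overlapped in the WT lists.

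Longer runs carried a summit more often. In KO RNase R- replicates 1 and 2, 13.4% and 14.1% of the 583 receptor-window runs of 100 bases or more had a summit, and 2.97% of the 876 runs of 30 to 39 bases in each list. At other genes the shares were 12.9% and 15.9% for the long runs and 2.59% and 3.08% for the short ones. In KO RNase R+ 3.43% and 4.12% of the long receptor runs had a summit, against 3.70% and 3.59% at other genes. For the long runs the receptor share was lower than at other genes in KO RNase R- replicate 2 and KO RNase R+ replicate 1. For runs from 40 to below 100 bases the receptor share was higher in each KO list. In WT RNase R- 2.23% and 1.20% of the long receptor runs had a summit (13 and 7 runs), against 1.36% and 0.789% at other genes.

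Other repeats were shared as well. Of the 460 summit windows, 156 (33.9%) shared a mixed stretch of 20 bases with another receptor region. The stretches found in the most regions were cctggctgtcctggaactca (21 regions), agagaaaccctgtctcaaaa (20) and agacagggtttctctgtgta (18), which are parts of B1, a short interspersed element present in very many copies of the mouse genome. Any of them was in 8.74% of receptor peaks and in 8.79% of peaks at other genes, while 0.380% of tiles of receptor windows and 0.976% of tiles of all gene windows held one. The methods kept only reads with a unique position, and what this does to peaks in such copies was not tested. The Vmn1r51 and Olfr120 windows, printed above, shared another stretch with a window near Olfr393.

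The peaks followed the restriction fragments. Of the receptor peaks, 72.6% began and 64.0% ended within 4 bp of a cut site of 1 of the 4 enzymes, while 15.2% of positions in receptor windows lie that near to a site. At other genes the shares were 69.2% and 63.3%, with 15.6% of positions. Both edges lay that near to a site in 46.3% of receptor peaks and 44.1% of peaks at other genes. The lists differed, and in WT RNase R+ 29.3% and 34.7% of peaks at other genes began near a site. The median width of a receptor peak was 258 bp, equal to the median predicted length of the fragment at its summit (258 bp), and the values at other genes were 266 and 238 bp. Receptor windows hold 17.9 cut sites per kb and all gene windows 18.6.

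The strength of receptor peaks was set beside that of peaks at other genes, without a test. The median fold enrichment was 6.51 and 6.86 in KO RNase R- (other genes 6.94 and 6.86), 7.28 and 7.41 in KO RNase R+ (6.76 and 6.88), and 6.66 and 6.95 in WT RNase R- (6.57 and 6.81). In WT RNase R+, with 2 receptor peaks a list, it was 12.2 and 17.01 (8.42 and 7.91). The median summit height was 13 and 14 fragments in KO RNase R-, 14 in both KO RNase R+ lists, and 9 and 10 in WT RNase R-. The highest fold of any KO RNase R- list was in replicate 2, at 17.2 among 281 receptor peaks and 336.5 among 19565 peaks at other genes. A maximum tends to grow with the number of peaks, so these values do not compare typical strength. Peaks whose expected level was over 3 times the list's lowest, as at multi-copy sequence, made up 2.46% and 2.49% of receptor peaks in KO RNase R- and 4.02% and 3.89% of those at other genes.

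Other genes of these sensory systems were counted in the same way. Of 16 genes listed for the olfactory system on chromosomes 1 to 19, 8 and 9 had a summit in KO RNase R- and 4 and 2 in KO RNase R+. In WT RNase R- 3 and 1 had one, and none had one in WT RNase R+. The shares in KO RNase R- were 50% and 56.25%, against 27% and 30.8% of all genes, and in KO RNase R+ 25% and 12.5%, against 9.13% and 8.08%. Gnal, the G protein subunit that couples odorant receptors to adenylyl cyclase, had a summit in 5 lists, and Cngb1, a subunit of the olfactory cation channel, and Ano2, a chloride channel, had one in 4 lists each. Adcy3, the adenylyl cyclase, and Omp, a marker of mature olfactory neurons, had none. Of 11 genes of the vomeronasal system, 1 and 3 (9.09% and 27.3%) had a summit in KO RNase R-, against 27% and 30.8% of all genes, and 1 had one in each KO RNase R+ list, in WT RNase R- replicate 1 and in WT RNase R+ replicate 1. Gnao1, a G protein subunit of basal vomeronasal neurons, had one in 6 lists, and Trpc2, the vomeronasal cation channel, had none. By density the olfactory list stood at 0.797 and 0.846 of all genes in KO RNase R-, and the vomeronasal list at 0.250 and 0.722 there and at 1.97 and 0.565 in KO RNase R+.

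Peaks at marker genes of fibroblasts and of olfactory sensory neurons were counted too, though a peak is not an expression level. Of 12 fibroblast markers, 11 had a summit in each KO RNase R- list, 7 and 6 in KO RNase R+, and 2 and 0 in WT RNase R-. The shares were 91.7% in each KO RNase R- list (all genes 27% and 30.8%), 58.3% and 50% in KO RNase R+ (9.13% and 8.08%), and 16.7% in WT RNase R- replicate 1 (4.51%). Their density relative to all genes was 6.44 and 5.47 in KO RNase R-, compared with 0.692 and 0.657 for receptor genes, and the Poisson intervals were apart. Of 7 olfactory sensory neuron markers, 5 of them also in the olfactory list, 5 and 4 had a summit in KO RNase R-. In KO RNase R+ 2 and 4 had one, and in WT RNase R- 1 and 0. The shares were 71.4% and 57.1% in KO RNase R- (all genes 27% and 30.8%) and 28.6% and 57.1% in KO RNase R+ (9.13% and 8.08%). In WT RNase R- replicate 1 it was 14.3% (4.51%). The relative density of these markers was 1.03 and 0.948 in KO RNase R-. A summit in all 4 KO lists and in no WT list was found at Col1a1 (collagen), Fn1 (fibronectin) and Vim (vimentin). It was also found at Pdgfra and Pdgfrb (growth factor receptors) and at Dcn (decorin). Col3a1, Sparc and S100a4 had a summit in fewer KO lists and in no WT list. Col1a2 and Thy1 also had one in WT RNase R- replicate 1, and Lum had none in any list. The share of all genes with a summit in all 4 KO lists and no WT list was not counted. The 59 taste and trace amine receptor genes had a relative density of 0.425 and 0.818 in KO RNase R-, and the 145 genes of the Defb, Krtap, Skint and Mrgpr families 0.796 and 0.572. The 411 genes whose symbol starts with Zfp, taken by name alone, stood above 1 (1.26 and 1.30 in KO RNase R-).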

How the data were processed

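DRIP-seq peak lists of 8 S9.6 pull-downs were used, out of 16 samples; the 8 inputs gave no list here. Per the study's methods and the submitters' processing notes, the authors aligned trimmed read pairs to GRCm38 with Bowtie2, removed duplicates and reads without a unique position with SAMtools 1.1, and called peaks with MACS2 on each replicate on its own. The control library used in calling is not given in the sources used here. The deposited columns used were the coordinates, the fold enrichment (a ratio of the summit to the expected level), and the −log10 p and −log10 q of each peak, as the authors' caller wrote them. The lists hold no library totals. The fragments at a summit and the expected level were recovered from the fold and −log10 p together (tolerance 0.005; 100% of summits gave a whole number). The study's reporting summary gives fewer uniquely mapped reads for the WT RNase R- pull-downs and the WT inputs than for the KO libraries, while the WT RNase R+ pull-downs were about as deep as those of KO RNase R+.

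Summits were assigned to gene windows (gene and 5000 bp on each side, GENCODE M21), and densities used the merged length of windows. One value per list was tested, by exact permutation or sign-flip tests, two-sided, with Benjamini-Hochberg adjustment over 7 tests. Poisson and binomial intervals (95%) cover counting error only. Named regions were those in the most lists (up to 10), the 3 strongest in both replicates of each group, all of WT RNase R+, and the 3 densest and 3 sparsest clusters of at least 0.5 Mb; list genes were named by the number of lists with a summit (up to 10), and others were named after their values were seen. The members, lists and named-region rule were chosen with earlier results of these data known. Sequences are from the GRCm38 RefSeq assembly. The sequence of 1 named region is not reported here. Python 3.11.15, numpy 2.4.6, pandas 2.3.3, scipy 1.17.1, pysam 0.24.0, samtools 1.23.1, bedtools 2.31.1 and matplotlib 3.10.9 were used, and the scripts were tested on simulated data. Alternatives in windows, peak thresholds, references, pseudocount and replicates were tried.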

Additional observations from a re-analysis of the deposited data

How the results depend on the processing

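The excess of KO over WT receptor peaks and the lower number with RNase R kept their direction under every alternative run (windows of 0, 2000 and 10000 bp, stricter peaks, thinned KO lists, protein-coding receptors, pseudocount 1, and each list left out). With a fold of at least 10 the treatment difference shrank to -0.88 (exact p = 0.333). With each list left out, the log2 difference between KO and WT was 2.44 to 3.61 without RNase R, 4.28 to 4.39 with it and 3.39 to 3.97 over both, and that between treatments -3.33 to -2.74. The mean log2 relative density was -0.53 to -0.40, its genotype difference -0.48 to -0.28 and its treatment difference -0.33 to -0.13. Over the other alternatives the genotype difference ran from -0.78 (window of 0 bp, exact p = 0.0556, the smallest possible) to -0.08 (without windows that overlap another gene, exact p = 0.833), and it was -0.59 for protein-coding receptors and -0.53 against genes of at most 10 kb (exact p = 0.0556 each). The mean log2 relative density was no longer past the unadjusted threshold with a fold enrichment of at least 10 (-0.40, exact p = 0.0859), without peaks over 3 times the background level (-0.29, exact p = 0.0781), and in the alternatives chosen after seeing the data, the GC-range reference (-0.030, exact p = 0.805) and without the WT RNase R+ lists (-0.47, exact p = 0.0625, from fewer lists). The treatment difference in relative density turned positive with a fold of at least 10 (0.94), without peaks over 3 times the background level (0.062) and with the GC-range reference (0.24). The cause was not tested. With 50% overlap of the shorter peak, 32.2%, 28.2%, 7.81% and 33.3% of regions were in both replicates of KO RNase R-, KO RNase R+, WT RNase R- and WT RNase R+. The replicate numbers did not pair the lists by the labels (correlation over clusters 0.07 and 0.24, the others not computable). With the replicate number as a block, an exact test of paired lists, the values were unchanged (3.02, 4.34, 3.68, -3.03, -0.38 and -0.23; exact p = 0.5, 0.5, 0.125, 0.125, 0.25 and 0.25), and 0.125 is the smallest p 4 pairs can give. The WT RNase R+ lists hold 2 receptor peaks each, which limits every value from them.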
